A study of Mus musculus with 4 samples.

Results

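The mouse liver miRNAs mmu-miR-192, mmu-miR-194 and mmu-miR-215 were taken from the arrays by their exact miRNA name. They are 3 of the 611 mouse miRNAs on the arrays. Liver RNA of male WT mice and male *Clock* mutant mice (Clock△19), 6 to 8 weeks old, was compared at ZT2 and ZT14, which are 2 h and 14 h after lights on in a 12 h light and 12 h dark cycle. Before that, all mice were caged singly for 2 weeks and fed without restriction. RNA of 3 mice was pooled for each genotype and time, and each of the 4 pools was hybridized to 1 array, so no condition has a replicate. The mutant allele of *Clock*, a core gene of the circadian clock, is carried in every tissue of the mutant mice and not in the liver alone. The labels and methods do not give the strain of the WT mice.

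MiRNAs are short RNAs that guide silencing complexes to messenger RNAs, mainly through pairing of the seed near their 5′ end. The miRNAs miR-192, miR-194 and miR-215 are known as miRNAs of liver and gut epithelium, where hepatocyte nuclear factors drive their precursors, and they have been described as responsive to p53 in human cells. In the mouse they come from a pair of genomic clusters, each of which joins a copy of miR-194 to either miR-192 or miR-215.

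The mature sequences are shown because they set which members can share targets and which can be confused by a probe. They are given 5′ to 3′ as RefSeq lists them for the GRCm38.p6 build, with the seed, bases 2 to 8, in capitals.
mmu-miR-192-5p: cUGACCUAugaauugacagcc
mmu-miR-215-5p: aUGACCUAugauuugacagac
mmu-miR-194-5p: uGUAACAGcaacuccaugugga
MiR-192 and miR-215 have the same seed, which among 1679 mature mouse miRNA names in the RefSeq table is held by these 2 only. They are identical at 18 of 21 bases. Counted from the 5′ end, with the base of miR-192 first, the differences are C1A, A12U and C20A. The seed of miR-194 is held by no other name in the table. The array names carry no arm, and they were matched to the 5p arm, which is the arm these names denoted before arms were written out. No entry of the array stands for the other arm of these precursors.

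The precursors of the clusters are shown because they place miR-194 beside either of the other members. The mature miRNA is in capitals.
Mir194-2: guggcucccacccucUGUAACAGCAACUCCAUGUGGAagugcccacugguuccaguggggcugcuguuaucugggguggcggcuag
Mir192: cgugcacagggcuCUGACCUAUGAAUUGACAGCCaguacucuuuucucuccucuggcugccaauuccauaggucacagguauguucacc
Mir194-1: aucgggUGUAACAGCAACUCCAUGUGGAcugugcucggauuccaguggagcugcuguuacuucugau
Mir215: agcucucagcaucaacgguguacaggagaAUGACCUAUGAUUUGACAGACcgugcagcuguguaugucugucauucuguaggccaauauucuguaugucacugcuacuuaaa
In GRCm38.p6, Mir194-2 lies at chr19:6264643-6264728 and Mir192 at chr19:6264844-6264932, both on the plus strand with 115 bases between them. This cluster lies between genes, 2338 bases after the end of *Atg2a*, a gene of autophagosome formation, and 3861 bases before the lncRNA Gm14963. Mir194-1 lies at chr1:185313319-185313385 and Mir215 at chr1:185313581-185313692, both on the plus strand with 195 bases between them. That cluster lies within the span of *Iars2*, a mitochondrial isoleucyl-tRNA synthetase gene, which is on the minus strand. The mature miR-194-5p is the same from both loci, so the array signal of miR-194 cannot be assigned to a cluster.

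Each array had 13715 spots, read in 1 colour, and the signal of a spot is a linear intensity after background subtraction, in scanner units. Feature Extraction, the scanner software, called 138 to 193 of the 611 mouse miRNAs detected on an array, and 123 of them were detected on all 4 arrays. No spot of a mouse miRNA was saturated. The 75th percentile of the 123 miRNAs was 537 at ZT2 and 339.9 at ZT14 in WT, and 503 at ZT2 and 536 at ZT14 in the mutant, so the WT ZT14 array was dimmer than the others before scaling. Signals were divided by this percentile and put on the log2 scale. The hepatocyte miRNA miR-122 was detected on all 4 arrays, at scaled signals of 97.3 and 86.5 in WT and 111 and 98.3 in the mutant (ZT2 and ZT14). A lower scaled signal in whole liver can come from fewer cells of a type or from less RNA per cell, which cannot be told apart.

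MiR-192 was detected on all 4 arrays, and all 20 of its spots, which belong to 2 probes, were well above background on each. In WT its unscaled signal was 4096 at ZT2 and 2406 at ZT14, and the mutant arrays had 4112 and 3925. The WT ZT14 array was the low one, as it was for the 75th percentile. After scaling, the log2 level in WT was 2.93 at ZT2 and 2.82 at ZT14, and that in the mutant was 3.03 and 2.87. The spot SD, the pooled SD of the log2 signals of repeated spots of a probe, was 0.047 to 0.066 on these arrays. It covers the spots of 1 array and holds no difference between mice. In order of level, the mutant at ZT2 was highest, then WT at ZT2, the mutant at ZT14 and WT at ZT14. The levels of WT at ZT2 and of the mutant at ZT14, and those of the mutant and WT at ZT14, differed by less than their combined spot SD.

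MiR-194 was also detected on all 4 arrays with all 20 spots of 2 probes well above background. In WT its unscaled signal was 1314 at ZT2 and 817 at ZT14, and the mutant arrays had 1383 and 1213. The WT ZT14 array was again the dim one. After scaling, the log2 level in WT was 1.29 at ZT2 and 1.27 at ZT14, and that in the mutant was 1.46 and 1.18, with spot SDs of 0.031 to 0.063. The mutant had the highest level of the 4 arrays at ZT2 and the lowest at ZT14. Both WT levels lay between them and differed from each other by less than their combined spot SD.

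MiR-215, the seed partner of miR-192, was not detected on any array. None of its 20 spots was well above background on any array. Its mean signal in WT was -3.42 at ZT2 and -1.23 at ZT14, and that in the mutant was -2.52 and -2.47. The negative control spots of the same arrays averaged 5.48 ± 3.69 (SD, n = 416) and 5.24 ± 3.86 (SD, n = 423) at ZT2, and 8.32 ± 4.33 (SD, n = 413) and 9.72 ± 4.96 (SD, n = 414) at ZT14, in WT and mutant in turn. Mean miR-215 signals thus lay below the mean of the negative controls on every array. Outside outlier flags, 1 of 20 and 2 of 19 miR-215 spots were above 0 at ZT2 and 4 of 17 and 3 of 19 at ZT14. The highest was 8.54 units, in WT at ZT14. No fold change is given for miR-215, since both sides of every comparison are not well above background. The sequences of the probes were not used here, so how far a probe of either member reads the other was not tested.

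**Figure D1:**
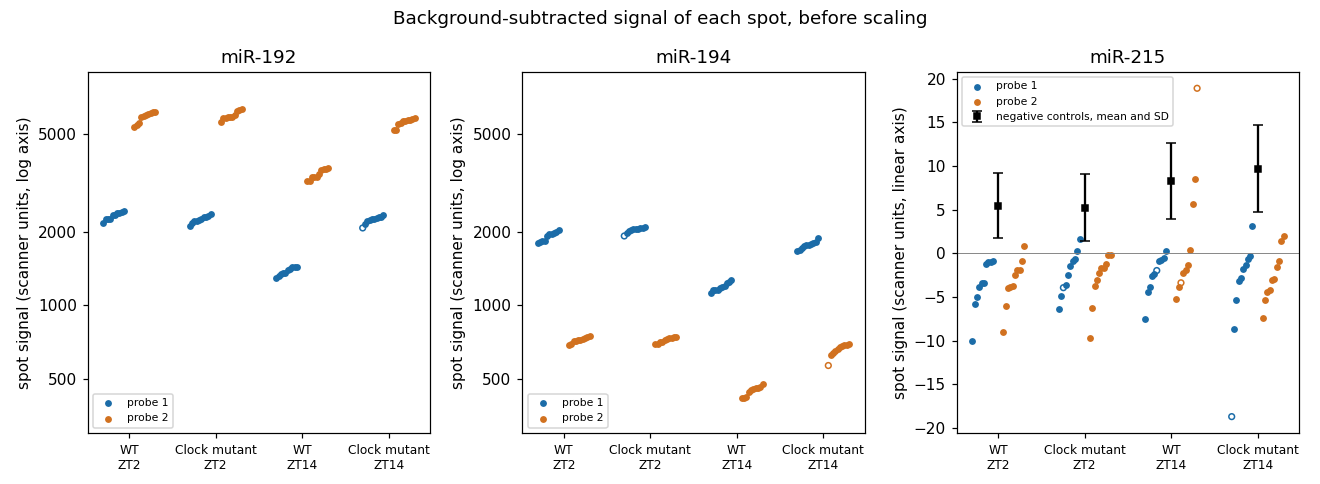
Signal of each spot of miR-192, miR-194 and miR-215 (vertical axis, scanner units, log axis for miR-192 and miR-194 and linear for miR-215) on the 4 arrays (horizontal axis), with the probes in separate colours, spots in order of signal and outlier spots as open circles; black squares and bars are the mean and SD of negative control spots. The spots of a probe lie close together for miR-192 and miR-194 and are lower on the WT ZT14 array, and the miR-215 spots scatter around and below 0.

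**Figure D2:**
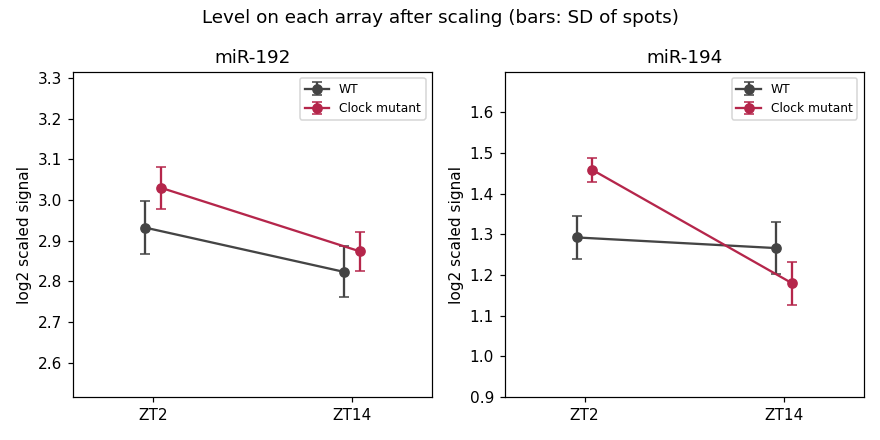
Log2 scaled signal (vertical axis) of miR-192 and miR-194 in WT and *Clock* mutant liver at ZT2 and ZT14 (horizontal axis), 1 array per point, with bars for the spot SD. On this scale both members were lower at ZT14 than at ZT2 in the mutant (other scalings turn this direction in some settings), and the genotype lines of miR-194 cross, from 1.29 and 1.46 at ZT2 to 1.27 and 1.18 at ZT14 in WT and mutant.

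Genotypes were compared at 1 time point at a time, to see how the *Clock* mutation bears on liver miRNAs. After scaling, the genotype ratios of miR-192 and miR-194 were small at ZT2, but their size and sign depend on the processing. At ZT2, miR-192 was 1.07-fold higher in the mutant, a log2 ratio of 0.098 (spot SD 0.083). The ratio of miR-194 at ZT2 was 1.12-fold, or 0.17 on the log2 scale (spot SD 0.061), which is 2.73 times its spot SD. With the 75th percentile taken over all mouse miRNAs, the ZT2 ratios were 0.41 for miR-192 and 0.47 for miR-194. From the scanner's summed signal per miRNA, scaled, they were -0.13 and -0.059. With the scaling used throughout, 0 of the 2 detected members were 2-fold apart or more at ZT2, beside 8.25% of the 194 miRNAs detected on either array. This share includes miRNAs detected on only 1 of the arrays, taken at a bound against the lowest detected signal of the other. Of the 160 miRNAs detected on both arrays, as the members were, 2.5% had a log2 ratio below -0.92. On this scale all of the 2-fold miRNAs were lower in the mutant. The ratios of both members lay within the bulk of the 160 miRNAs detected on both arrays, whose median was -0.065 and whose 5th and 95th percentiles were -0.69 and 0.36. Of these miRNAs, 41 had a higher ratio than miR-192 and 28 a higher ratio than miR-194.

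At ZT14 the genotype ratios of both members were near 1 after scaling, but reached log2 values of 0.89 for miR-192 and 0.75 for miR-194 when spike-in probes set the scale. For miR-192 the mutant was 1.04-fold of WT (log2 0.050, spot SD 0.078). MiR-194 was at 0.942-fold of WT in the mutant (log2 -0.086, spot SD 0.083). Here too 0 of the 2 detected members were 2-fold apart or more, beside 13.4% of 157 miRNAs, those at a bound included. Of the 123 detected on both arrays, 7.32% had a log2 ratio below -0.86. All of the 2-fold miRNAs were again lower in the mutant on this scale. Their share and direction depend on the scaling, as the median of the 123 miRNAs detected on both arrays was 0.63 without it. After scaling that median was -0.031, with 44 miRNAs above miR-192 and 69 above miR-194. With 1 pool per condition, no test can set these ratios against the differences between mice.

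ZT14 was compared with ZT2 within each genotype, since these times lie in the dark and in the light phase. After scaling, miR-192 in WT was at 0.927-fold at ZT14 (log2 -0.11, spot SD 0.091) and miR-194 at 0.982-fold (log2 -0.026, spot SD 0.082). The direction depends on the scaling. Of 11 other ways of processing, 3 put the WT ratio of miR-192 above 0, 7 below and 1 at 0. For miR-194 in WT it was above 0 in 4, below in 6 and at 0 in 1. The deposited log2 table, described below, is among the 11 and put both members above 0 in WT. The median of the 137 miRNAs detected on both WT arrays was -0.12, so that miR-192 lay 0.012 and miR-194 0.095 above it on the log2 scale. In WT, 0 of the 2 detected members were 2-fold apart or more, beside 7.73% of 194 miRNAs (1.03% higher and 6.7% lower at ZT14). These shares include miRNAs at a bound. Of the 137 detected on both arrays, 2.92% had a log2 ratio below -0.96, and the highest ratio was 1.09.

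After scaling, both members were lower at ZT14 than at ZT2 in the mutant. MiR-192 was at 0.897-fold (log2 -0.16, spot SD 0.070) and miR-194 at 0.825-fold (log2 -0.28, spot SD 0.061). The difference of miR-194 was 4.55 times its spot SD, the largest such multiple of the 8 ratios of the 2 detected members. Such a multiple is not particular to miR-194. In the same comparison, miR-22 (log2 -0.29, spot SD 0.060) and miR-451 (log2 -1.21, spot SD 0.051) had larger differences with smaller spot SDs. The median of the 140 miRNAs detected on both mutant arrays was -0.16, so miR-192 lay at the median and miR-194 lay 0.12 below it, with 106 of the 140 above miR-194. The direction depends on the scaling: of 11 other ways of processing, 5 put the ratio of miR-192 above 0, 5 below and 1 at 0, and for miR-194 it was above 0 in 2 and below in 9. The 1 at 0 is quantile normalization, which fixes this ratio in advance, since miR-192 had place 6 of 611 by signal on every array. The deposited log2 table is among the settings above 0 for each member. In the mutant, 0 of the 2 detected members were 2-fold apart or more between times, beside 13.5% of 163 miRNAs. That share includes miRNAs at a bound. Of the 140 detected on both arrays, 7.14% had a log2 ratio below -0.85.

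**Figure D3:**
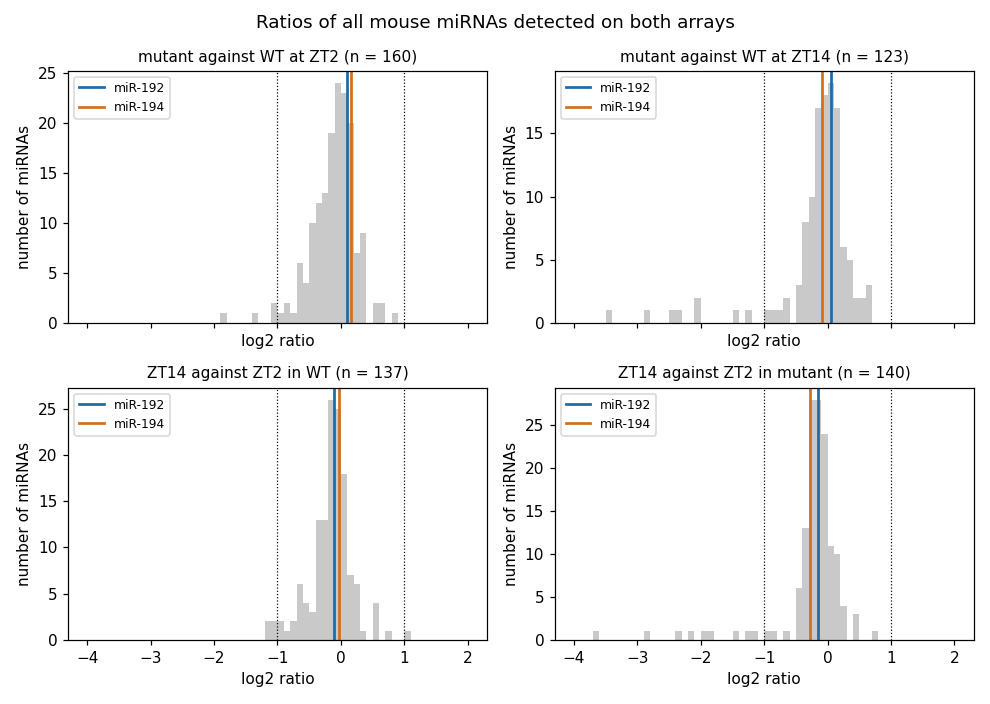
Number of mouse miRNAs detected on both arrays (vertical axis) by their log2 ratio (horizontal axis) in the 4 comparisons, with the ratios of miR-192 and miR-194 as coloured lines and a 2-fold difference in either direction as dotted lines. Both members lie in the central peak in every panel, between -0.28 and 0.17.

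The probes of a member were read apart to see whether 1 of them sets a ratio. Within a probe, the coefficient of variation of the spots of miR-192 and miR-194 was 1.64% to 5.13%. The ratios of the probes of a member differed by at most 0.10 on the log2 scale. Between times in the mutant the probes of miR-192 gave -0.082 and -0.19 and those of miR-194 gave -0.31 and -0.20. At ZT2 in the mutant against WT, the probes of miR-194 gave 0.19 and 0.092. Every probe alone had the sign of its member's ratio in all 4 comparisons.

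The difference between miR-194 and miR-192 in a ratio does not depend on the factor by which an array is scaled, since both are read on the same arrays. For mutant against WT, miR-194 minus miR-192 came to 0.068 at ZT2 (spot SD 0.10), and at ZT14 to -0.14 (spot SD 0.11). For ZT14 against ZT2 it was 0.083 (spot SD 0.12) in WT and -0.12 (spot SD 0.093) in the mutant. The ratios of these clustered miRNAs thus stayed within 0.14 of each other on the log2 scale.

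The genotype ratio was next set against itself between times. The log2 ratio of mutant to WT at ZT14 minus that at ZT2 was -0.047 (spot SD 0.11) for miR-192 and -0.25 (spot SD 0.10) for miR-194. Over the 123 miRNAs detected on all arrays its median was -0.057 and its SD 0.62, and 107 had a difference of larger size than miR-192 and 46 a larger one than miR-194. The range of levels over the 4 arrays was 0.21 for miR-192 and 0.28 for miR-194, beside a median of 0.35 over the 123. Of the 123, 16 varied less than miR-192 and 30 less than miR-194. Both members are bright, miR-192 at place 6 and miR-194 at places 15 to 18 of the 611 by signal. Their ratios had spot SDs of 0.061 to 0.091. The medians over the miRNAs detected on both arrays were 0.13 to 0.14, counting only those whose unflagged spots were all above 0. How much of the difference in range comes from spot noise was not tested.

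Genotype and time were also fitted together over the 4 arrays with limma, with 1 residual degree of freedom. With 1 array per condition, that residual is the difference of the genotype ratio between times. The SE is built from it and from the variance of the other miRNAs. It cannot separate that difference from the spread between pools. For miR-192 the genotype difference of mutant minus WT was 0.074 (SE 0.12) on the log2 scale, with a limma adjusted p = 0.820 after Benjamini-Hochberg adjustment over 123 miRNAs. The genotype difference of miR-194 was 0.040 (SE 0.14, limma adjusted p = 0.889). Between times, ZT14 minus ZT2 was -0.13 for miR-192 (SE 0.12) and -0.15 for miR-194 (SE 0.14), each with a limma adjusted p = 0.634. Neither member passed the threshold of 0.05 for either term. The same limma fit called 0 of all 123 miRNAs for genotype, with 10 at an unadjusted p under 0.05, and 0 for time, with 12, so a p above the threshold does not show that a member stayed level.

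The scaling decides how large the genotype ratios at ZT14 are. Without scaling, they were 0.71 for miR-192 and 0.57 for miR-194 on the log2 scale, on arrays where the median of the 123 miRNAs detected on both was 0.63. Relative to the median miRNA, which no array constant can move, miR-192 was 0.081 above and miR-194 0.055 below at ZT14, and they were 0.16 and 0.23 above at ZT2. A change shared by all miRNAs of an array and a difference in labelling or loading cannot be told apart here.

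**Figure D4:**
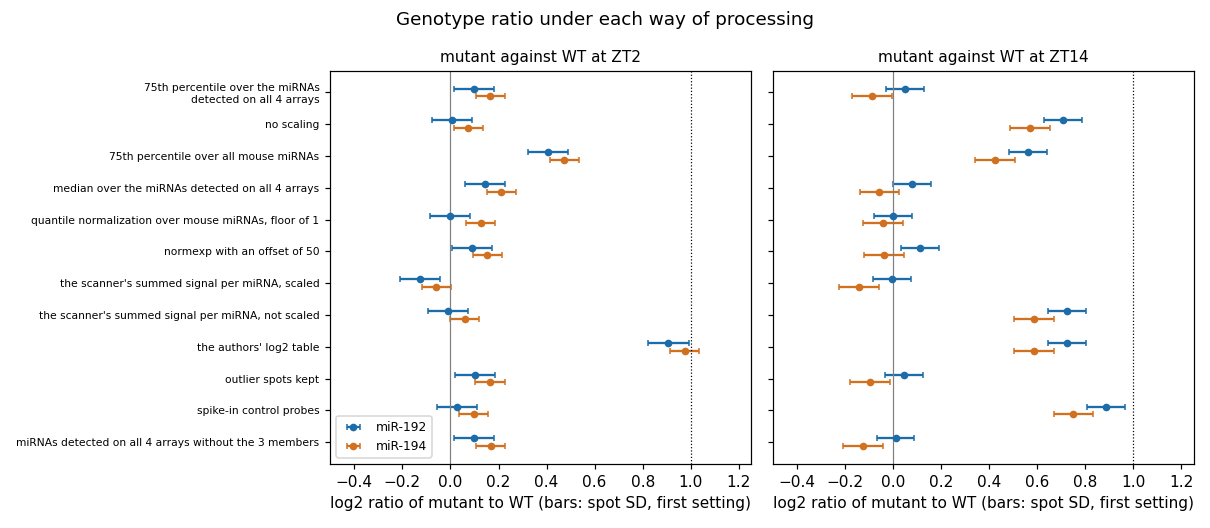
Log2 ratio of mutant to WT (horizontal axis) for miR-192 and miR-194 at ZT2 and ZT14 under each way of processing (vertical axis), with the one used throughout in the top row; bars are the spot SD of that top row and the dotted line is a 2-fold difference. No ratio reached the dotted line, and at ZT14 the settings with no scaling between arrays or with spike-in probes gave ratios between 0.57 and 0.89, and the 75th percentile over all mouse miRNAs gave 0.56 and 0.42.

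The deposited log2 table gives other ratios for the members. For them it equals log2 of the scanner's summed signal minus 1 number per array, which was 4.18 and 3.27 at ZT2 and -3.32 and -3.32 at ZT14, in WT and mutant in turn. For miR-192 its values were 8.26 and 9.16 at ZT2 and 15.05 and 15.77 at ZT14. For miR-194 they were 6.62 and 7.59 at ZT2 and 13.49 and 14.08 at ZT14. The ZT14 values of both members lie far above those at ZT2, which the scanner output does not show. MiR-215, which was undetected on every array, has -7.51 and -6.59 at ZT2 and 0 and 0 at ZT14 in the same table, and it thereby appears to differ by 0.92 between genotypes at ZT2 and by 7.51 between times in WT. The ratios of miR-192 and miR-194 at ZT2 in that table, 0.91 and 0.97, are about the same size as that of the undetected miR-215. Ratios above come from the scanner output alone.

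The miRNAs most like miR-192 over the 4 arrays, by the root mean square difference of log2 levels centred on their own mean, were miR-15a (0.011), let-7f (0.024) and miR-126-3p (0.032) of 122 candidates. The likeness of miR-194 to miR-192 was 0.055, in place 15. Most like miR-194 were miR-1904 (0.022), let-7g (0.023) and miR-126-3p (0.024), with miR-192 in place 9. These are values over 4 arrays that share 1 scaling, and the differences are about as small as the spot SD, so the order among the closest has little weight.

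Among 12 miRNAs listed as enriched in hepatocytes besides the members, a list not tested for being specific to these cells, all 12 were detected on every array. In the mutant against WT, 4 of them had a log2 ratio above 0 at ZT2, with a median of -0.043, and 2 at ZT14, with a median of -0.16. Over all miRNAs detected on both arrays, 64 of 160 were above 0 at ZT2 and 54 of 123 at ZT14. At each time 1 of the 12 was over 2-fold lower in the mutant, miR-802, with log2 ratios of -1.85 at ZT2 and -1.21 at ZT14. With the scaling used throughout, miR-192 was above 0 at both times and miR-194 at ZT2 only. The ZT14 ratios of both were about as large as their spot SD or smaller. Of 11 other ways of processing, 5 put miR-194 above 0 at ZT14 and 6 below. For miR-192 at ZT2, 8 were above 0, 2 below and 1 at 0. MiR-122, which makes up much of the miRNA of hepatocytes, had ratios of 0.19 at ZT2 and 0.18 at ZT14. At ZT14 against ZT2, 2 of the 12 were above 0 in WT and 1 in the mutant, with medians of -0.12 and -0.20, beside 38 of 137 and 29 of 140 miRNAs in all. Between times, the median of this list, both members and the median of all miRNAs were below 0 in each genotype with the scaling used throughout. This shared sign depends on that scaling. Scaled by the median of the same 123 miRNAs, miR-192 was at 0.11 in WT and 0.049 in the mutant, and miR-194 at 0.20 and -0.072.

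Of 8 other miRNAs listed as responsive to p53, 3 were detected on every array (miR-34a, miR-107 and miR-143). The miR-34b and miR-34c entries and miR-145 were undetected on all arrays. The median log2 ratio of the 3 was 0.19 at ZT2 and 0.19 at ZT14 in the mutant against WT, and -0.32 in WT and -0.22 in the mutant for ZT14 against ZT2. The 3 did not all move one way: at ZT2 their genotype ratios ran from -0.59 to 0.56. In each of the 4 comparisons 0 of the 3 were 2-fold apart or more, where 7.73% to 13.5% of all miRNAs were. These shares include miRNAs at a bound, detected on only 1 of the arrays compared.

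Markers of bile duct and gut epithelium, the other cells known for these miRNAs, were read as well. Of 8 epithelial miRNAs (the miR-200 family, miR-203, miR-31 and miR-375), 4 to 6 were detected on an array, and their summed scaled signal was 0.606 and 0.418 in WT and 0.439 and 0.457 in the mutant at ZT2 and ZT14. MiR-200c and miR-375 were undetected on all arrays. The summed signal of the red blood cell miRNAs miR-451, miR-144 and miR-486 was 3.32 and 2.94 in WT, and 5.94 and 2.55 in the mutant. It was highest in the mutant at ZT2, as were miR-192, miR-194, miR-122 and the summed endothelial miRNAs, with the scaling used throughout. From the scanner's summed signal per miRNA, scaled, miR-192 and miR-194 were lower in the mutant than in WT at ZT2 (log2 -0.13 and -0.059). The sum of leukocyte miRNAs was highest in WT at ZT2, at 1.197 against 0.611 to 0.752 elsewhere, and 3 of 4 muscle miRNAs were detected on that array and 0 on the others. The part of these cells in the ratios of miR-192 and miR-194 was not tested.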

How the data were processed

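Liver RNA of 3 mice was pooled per genotype and time and hybridized to 1 array each, 4 arrays on 1 slide. The deposited scanner output, made with Agilent Feature Extraction 10.7.1.1, holds a linear intensity per spot after background subtraction and flags for outlier, saturated and well-above-background spots. It also holds a summed signal and a detection call per miRNA. A log2 table with a row per miRNA was deposited too and served only as an alternative. The processing notes name Agi4x44PreProcess, and the normalization is not given in the sources used here.

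The mean intensity of a probe's unflagged spots was averaged over probes and scaled by the array's 75th percentile, taken over the 123 mouse miRNAs that all 4 arrays detected, before taking log2. A miRNA was called 2-fold apart from the ratio of 2 arrays, with no test. A miRNA detected on 1 of the arrays was taken at its bound against the lowest detected signal of the other, and one undetected on both has no ratio. The spot SD of a ratio combines both arrays. Genotype and time were fitted in an additive model with limma 3.58.1 in R 4.3.3, with Benjamini-Hochberg adjustment. Python 3.11.15 with matplotlib 3.10.9, pandas 2.3.3 and numpy 2.4.6 did the rest. The number of arrays limits the precision.

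The members and lists were chosen with earlier results of these data known. The miRNAs named are the members, the 3 closest to each detected member by root mean square difference, and list members on which a result turns. The lists were of hepatocyte, p53-responsive, epithelial, red blood cell, leukocyte, endothelial and muscle miRNAs. Summed scaled signals of the endothelial miRNAs, miR-126-3p and miR-126-5p, were 3.91 and 3.72 in WT and 4.25 and 3.61 in the mutant at ZT2 and ZT14. Sequences and places came from RefSeq tables of GRCm38.p6. No build is named by the arrays. Target predictions and qRT-PCR were not analysed here.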

Additional observations from a re-analysis of the deposited data

Results flagged for a closer look

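The genotype ratio of miR-194 had opposite signs at the 2 times. At ZT2 it was 0.17 on the log2 scale (spot SD 0.061), and at ZT14 it was -0.086 (spot SD 0.083), a difference of -0.25 (spot SD 0.10). With 1 array per condition the difference was not tested. The ratio at ZT14 was about as large as its own spot SD, and its sign depends on the scaling: it was 0.57 without scaling.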

How the results depend on the processing

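The 11 other ways of processing changed scaling, background, outlier spots or signal summary, or took the deposited log2 table. No genotype ratio of miR-192 or miR-194 reached 2-fold under any of them. With the deposited table, 2 members were 2-fold apart or more between times in WT and 2 in the mutant, and limma called 2 members for genotype (lowest adjusted p = 0.0328) and 2 for time (lowest adjusted p = 3.62e-05). In that table limma called 79 of all 123 miRNAs for genotype and 123 of 123 for time, so the calls are not particular to the members. Under every other alternative limma called 0 members for either term. The lowest adjusted p of a member ranged from 0.103 to 0.975 for genotype and from 0.274 to 0.865 for time over the other ways of scaling and summarizing.

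The difference of the genotype ratio between ZT14 and ZT2 moved by more than its spot SD under 6 of the 11. For miR-192, -0.047 in the report, it was 0.70 without scaling, 0.15 when the 75th percentile was taken over every mouse miRNA, 0.12 and 0.73 from the scanner's summed signal with and without scaling, -0.18 in the deposited table and 0.86 with spike-in probes. For miR-194, -0.25 in the report, it was 0.50, -0.050, -0.082, 0.53, -0.39 and 0.65 in the same order. The cause was not tested. Of the other counts, probe gaps and differences between times recomputed, 89 stayed on their side of the threshold or within the spot SD. Of the recomputed ratios of single members, 56 moved by more than the spot SD and 48 did not.

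Over the 11, the genotype ratio of miR-192 ranged from -0.13 to 0.91 at ZT2 and from -0.0049 to 0.89 at ZT14, and that of miR-194 from -0.059 to 0.97 and from -0.14 to 0.75. At ZT14, 5 settings put miR-194 above 0 and 6 below. Between times, without the deposited table, miR-192 ranged from -0.85 to 0.19 in WT and from -0.17 to 0.34 in the mutant, and miR-194 from -0.76 to 0.27 and from -0.28 to 0.22. With an array left out, genotype and time cannot be fitted together, so each was fitted alone with a lone array on one side, which is assumed to vary like the others. These fits also called 0 members, which says nothing about stability. No paired analysis was possible because the replicate number is the same on all 4 arrays and so makes no block. The additive limma fit already sets the genotypes against each other at the same time. Signal over background does not limit miR-192 or miR-194, while miR-215 has no measured level.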
